A study of Mus musculus with 2 samples.

Results

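Arteriolar-side capillary endothelial cells of the mouse cerebellum were described in single-cell RNA sequencing data of mutant mice with a knock-in and a knock-out allele (KIKO) and of their wild-type (WT) littermates. The cells were chosen by the genes detected in them. A cell had to hold at least 3 of 5 endothelial genes (Cldn5, Flt1, Pecam1, Cdh5, Slco1a4), under 3 of 5 mural genes (Abcc9, Kcnj8, Atp13a5, Vtn, Notch3) and at least 2 of 6 arteriolar genes (Hey1, Tcim, Lypd1, Stmn2, Slc26a10, Dync1i1). It also had to hold under 3 of 7 arterial genes (Gkn3, Bmx, Egfl8, Sema3g, Vegfc, Npnt, Igfbp3) and under 2 of 7 venous genes (Vwf, Slc38a5, Il1r1, Vcam1, Ndnf, Lmntd1, Flrt2). The choice gave 387 cells out of 2111 cells with the endothelial genes and out of 3451 cells kept in all. Of these, 143 were in the WT library and 244 in the KIKO library.

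Each library was made from the pooled cerebella of 4 mice aged 6 months, so the cells of single mice cannot be told apart. The KIKO mice carry a knock-in and a null allele of the targeted gene, and the WT littermates are given as C57BL/6. Both suspensions were dissociated with Accumax, frozen and thawed before capture with the 10x Genomics 3′ protocol, which tags each RNA molecule with a unique molecular identifier (UMI). Since each genotype had 1 library, nothing was tested and no difference could be checked against replicates. Values are UMIs of a class summed per library and scaled to a total of 1e+06 (counts per 1e+06 UMIs, CPM), and all intervals are exact 95% intervals that cover counting error only.

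Endothelial cells of the brain change along the vessel. Arterial cells receive blood under pressure, are wrapped by smooth muscle and depend on Notch signalling, whereas capillary cells carry most of the transporters of the blood-brain barrier. Cells at the arteriolar end of the capillary bed lie between them, and Cxcl12, the ligand of the receptor Cxcr4, is a known marker of that end.

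The remaining endothelial cells were put into 3 classes by the same genes, which serve as neighbours for comparison. The capillary class had under 2 arteriolar, under 3 arterial and under 2 venous genes (242 WT and 331 KIKO cells). The arterial class had at least 3 arterial and under 2 venous genes (52 and 97 cells). The venous class had at least 2 venous and under 3 arterial genes (345 and 568 cells), and 35 and 54 cells that met both were left apart. The arteriolar-side cells had a median of 7787 UMIs in WT and 7918 in KIKO, and 2890 and 2910.5 genes. The capillary class was shallower, with 4965 and 5136 UMIs, and the arterial class was deeper, with 9544.5 and 10356 UMIs. A rule on detected genes takes deeper cells, so its main results were repeated with cells thinned to 3000 UMIs each. Detection shares at 3000 UMIs were read from the thinned counts. For levels and ratios the cells were chosen after thinning but all their UMIs were summed, so these were not compared at equal depth. The libraries shared 45 cell barcodes, of which 0 belonged to an arteriolar-side cell in either library.

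The 6 arteriolar genes defined the cells, and their levels are given as a description. Hey1 (chromosome 3, 8663359 to 8667256 of GRCm38), a transcriptional repressor switched on by Notch, had at least 1 UMI in 71 of 143 WT cells (49.7%) and in 113 of 244 KIKO cells (46.3%). Tcim (chromosome 8, 24437180 to 24438984), a small regulator of transcription, was detected in 90 cells (62.9%) and 139 cells (57.0%). Lypd1 (chromosome 1, 125867622 to 125913101), a membrane-anchored protein of the Ly6 family, was detected in 68 cells (47.6%) and 92 cells (37.7%). The intervals of WT and KIKO overlapped for all 3 genes. The cells were chosen by these genes, so the overlap does not compare the genotypes.

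Stmn2 (chromosome 3, 8509360 to 8561606), a stathmin that destabilises microtubules and is best known from neurons, was the most often detected of the 6 genes, in 106 WT cells (74.1%) and 176 KIKO cells (72.1%). Slc26a10 (chromosome 10, 127171393 to 127180645), a member of the SLC26 family of anion exchangers, was detected in 59 cells (41.3%) and 111 cells (45.5%). Dync1i1 (chromosome 6, 5725639 to 6028039), an intermediate chain of the dynein motor, was detected in 57 cells (39.9%) and 105 cells (43.0%). Cells without endothelial genes and with under 3 of the 5 mural genes were read for comparison. In them free RNA and the cells' own expression were not told apart. Among them the 6 genes were found in 0.345% (Lypd1) to 9.66% (Dync1i1) of WT cells at a median of 5359.5 UMIs. In KIKO they were found in 0.581% (Hey1 and Lypd1) to 5.23% (Tcim) of such cells at 5712.5 UMIs. The arterial class held them too. At 3000 UMIs per cell, Stmn2 was found in 74% of WT arterial and 59.4% of WT arteriolar-side cells, Lypd1 in 48% and 26.8% and Hey1 in 28% and 28.3%.

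**Figure D1:**
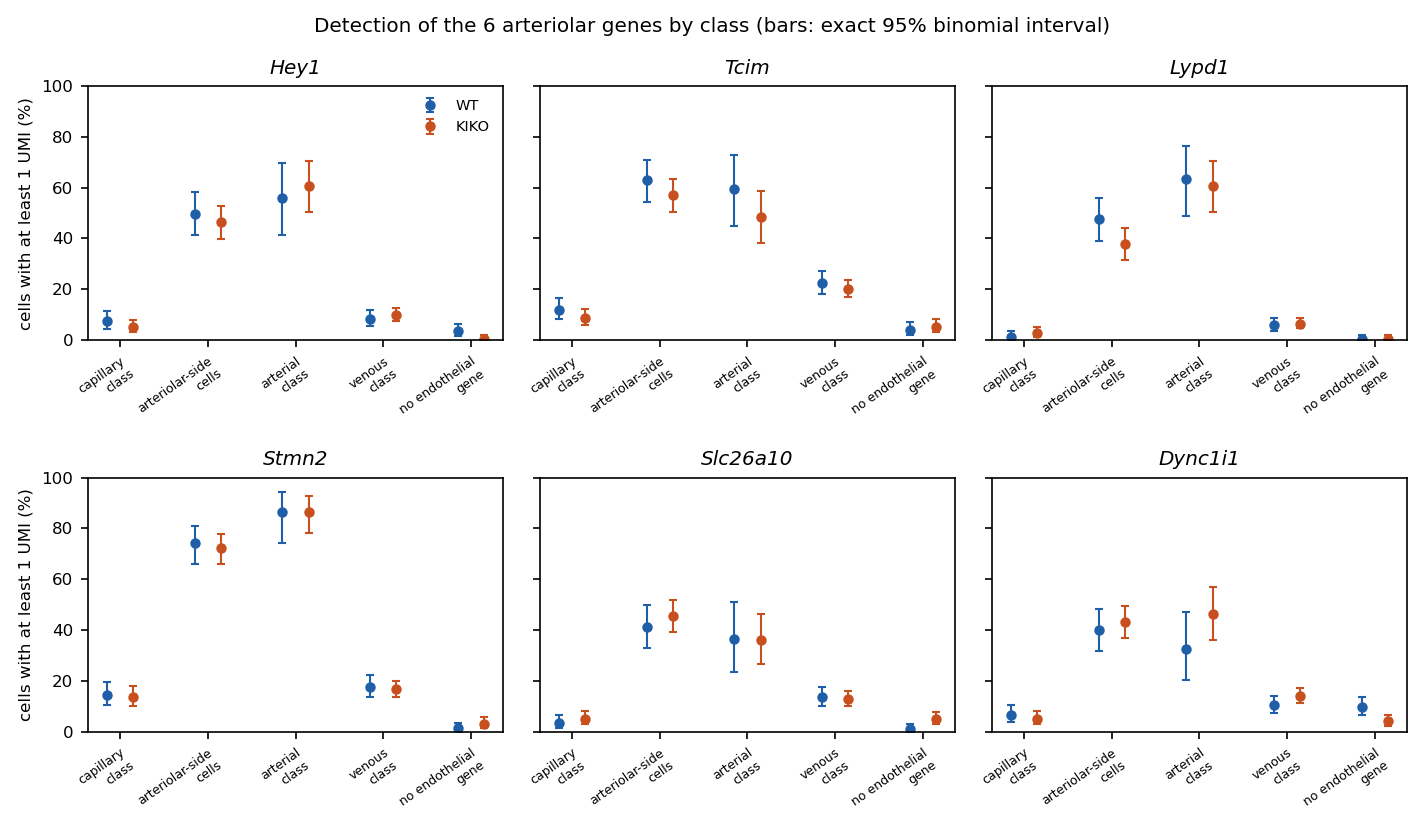
Share of cells with at least 1 UMI of each of the 6 arteriolar genes (y axis, percent) in 4 endothelial classes and in cells without endothelial genes, for the WT (blue) and KIKO (orange) libraries, with exact 95% binomial intervals. The high shares in the arteriolar-side cells follow from the rule, and Stmn2 is the most often detected of the 6 genes there, in 74.1% of WT and 72.1% of KIKO cells.

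Most arteriolar-side cells held few of the 6 genes. In WT, 55 cells held 2 of them, 41 held 3, 22 held 4, 20 held 5 and 5 held all 6. In KIKO the numbers were 101, 76, 35, 26 and 6. Tcim and Stmn2 were the most frequent pair in both libraries, detected together in 61 WT and 86 KIKO cells. The 7 arterial genes were not absent either, since 51 WT and 92 KIKO cells held 1 of them and 31 and 44 cells held 2. The most frequent of these in WT was Sema3g, a secreted semaphorin of arteries, found in 62 WT cells (43.4%). Of the 7 venous genes, 66 WT cells (46.2%) and 97 KIKO cells (39.8%) held 1, the most that the rule allows.

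Each arteriolar gene was then read in cells chosen by the other 5 genes, which is the only reading that the rule does not fix. At 3000 UMIs per cell, Stmn2 was found in 62.8% (52.2 to 72.5) of the 94 WT cells with 2 or more of the other genes, in 40.1% (32.1 to 48.5) of the 147 with 1 and in 17.0% (12.8 to 21.9) of the 283 with none. In KIKO the shares were 55.3% (46.4 to 64.0), 36.8% (30.7 to 43.2) and 16.02% (12.5 to 20.1). Stmn2 thus went with the other 5 genes in both libraries at equal depth. The arterial and venous limits were applied after thinning too, so cells of those classes can be among these cells. Of 371 WT and 540 KIKO cells classed as capillary after thinning, 180 and 237 were so classed without it. Without thinning, the Stmn2 shares with 2 or more and with none were 66.7% and 20.8% in WT. In KIKO they were 63.2% and 18.6%, with depth unequal between the bins. The part of arterial and venous cells in the shares was not tested.

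Lypd1 was found in 32.8% (24.8 to 41.7) of WT cells with 2 or more of the others and in 2.89% (1.17 to 5.87) of those with none, and in KIKO in 24.1% (18.1 to 30.8) and 6.07% (3.80 to 9.13). Hey1 was found in 22.7% (15.7 to 30.9) and 5.62% (3.11 to 9.25) in WT and in 21.0% (15.3 to 27.7) and 7.14% (4.68 to 10.4) in KIKO. Tcim was found in 36.6% (28.1 to 45.7) and 14.2% (10.3 to 18.9) in WT and in 27.1% (20.5 to 34.4) and 14.0% (10.7 to 17.9) in KIKO. Slc26a10 and Dync1i1 behaved in the same way, at 20% and 15.9% against 5.24% and 6% in WT, and at 17.4% and 20.7% against 6.61% and 8.71% in KIKO. For all 6 genes the intervals of the cells with 2 or more of the others and of those with none did not overlap in either library.

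**Figure D2:**
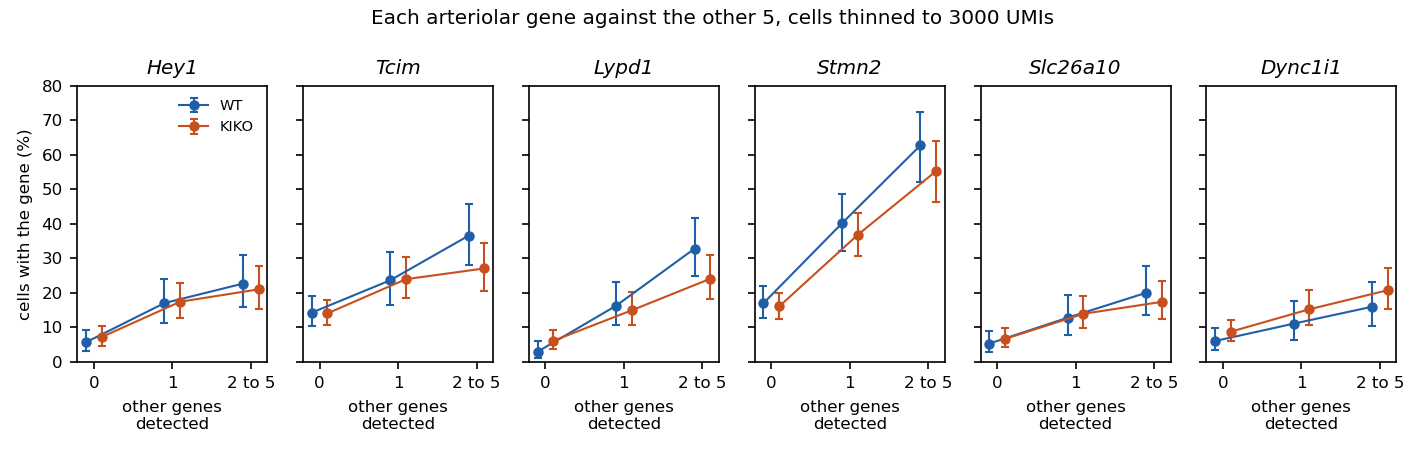
Share of cells with each arteriolar gene (y axis, percent) against the number of the other 5 genes detected (x axis), for WT (blue) and KIKO (orange), with exact 95% binomial intervals. The cells are those classed as arteriolar-side or capillary after thinning to 3000 UMIs, which can include cells classed as arterial or venous without thinning. Every gene was more frequent in cells with 2 to 5 of the others than in cells with none, with Stmn2 rising from 17.0% to 62.8% in WT.

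Cxcl12 (chromosome 6, 117168535 to 117181367) was the marker of these cells that the rule did not use. It was detected in 140 of 143 WT cells (97.9%) and 238 of 244 KIKO cells (97.5%). In cells without endothelial genes and with under 3 mural genes it was detected in 4.48% and 7.56%. Its level was 2179.6 CPM in WT arteriolar-side cells, against 1774 CPM in the capillary, 1460.2 in the arterial and 1059.9 in the venous class. In KIKO it was 2654 CPM, against 2371, 1827 and 1449 CPM. The arteriolar-side cells were thus highest in both libraries, but only slightly above the capillary class, with log2 ratios of 0.30 (0.22 to 0.38) in WT and 0.16 (0.10 to 0.22) in KIKO. When the cells were chosen after thinning, the KIKO difference was within counting error (-0.0092, interval -0.06 to 0.04).

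Only promoters of Cxcl12, Lypd1, Slc26a10 and Dync1i1 were in the RefSeq table used here. The 300 bases around the start of Cxcl12 (chr6:117168285-117168584, plus strand, GRCm38.p6, 250 bases before and 50 after the start) are shown because Hey1 is a Notch target and the core motif of the Notch effector RBPJ, TGGGAA, lies in them. Capitals mark the motif.
Cxcl12 promoter: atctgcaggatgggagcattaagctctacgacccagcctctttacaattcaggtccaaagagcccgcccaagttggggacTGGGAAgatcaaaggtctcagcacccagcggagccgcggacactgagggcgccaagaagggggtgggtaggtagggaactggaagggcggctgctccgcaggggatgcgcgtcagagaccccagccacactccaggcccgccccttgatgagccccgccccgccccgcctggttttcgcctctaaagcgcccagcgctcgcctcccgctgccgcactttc
The motif was searched on both strands (TGGGAA and TTCCCA) and found once, with its first base at -170 relative to the start. It was not found in the 3 promoters of Lypd1 or in those of Slc26a10 and Dync1i1. Of 32851 promoters of the same length, 8397 (25.6%) hold it, so the match describes these letters and nothing more.

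Alpl, Car4 and Tmsb10, which the rule did not use, were read by the number of arteriolar genes detected. They are among the 15 highest or 15 lowest genes against the capillary class. A difference between bins inside and outside the rule therefore follows from their choice, and only the steps within each side do not. Alpl, an alkaline phosphatase of arterioles and capillaries, stood at 30.8 CPM in WT capillary cells with 0 of the 6 genes and at 68.8 CPM with 1, just outside the rule. It stood at 115 CPM with 2, just inside the rule, at 119 CPM with 3 and at 161 CPM with 4 to 6. Car4, a membrane carbonic anhydrase of capillaries, went the other way, at 817, 683, 299 (2 genes), 344 and 238 CPM. Tmsb10, which binds free actin, stood at 1442, 986, 502, 402 and 252 CPM. In KIKO the same bins gave 49.1, 75.8, 131, 161 and 161 CPM for Alpl, 733, 545, 437, 237 and 198 CPM for Car4, and 1521, 907, 565, 354 and 216 CPM for Tmsb10. Outside the rule, Alpl rose and Car4 and Tmsb10 fell from 0 to 1 arteriolar gene in both libraries. Inside it, Tmsb10 fell at each step in both libraries. Car4 in WT rose from 299 to 344 CPM before it fell to 238 CPM, and Alpl in KIKO stayed at 161 CPM over the last step. Whether the bins mix separate groups of cells was not tested. Median UMIs per cell rose along the same bins, from 4635 to 9562 in WT and from 4848 to 9168 in KIKO, and their part in the series was not tested.

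Arterial genes outside the rule were higher in the arteriolar-side cells than in the capillary class. Of 16 such genes with enough counts, 13 had intervals above a ratio of 1 in both libraries and 0 had both below it. Over all 3598 genes compared, 289 (8.03%) were above and 230 (6.39%) below in this way. The median log2 ratio of the 16 genes was 0.54 in WT and 0.64 in KIKO, against 0.02 and 0.01 over all genes.

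Tm4sf1, a membrane protein of the tetraspanin-like family, was at 415, 749 and 1417 CPM in the WT library and 378, 782 and 1544 CPM in the KIKO library in the capillary class, the arteriolar-side cells and the arterial class. Edn1, which encodes the vasoconstrictor endothelin-1, was at 58.6, 177 and 224 CPM in the WT library and 65.0, 139.5 and 216 CPM in the KIKO library in the same order. Both genes were intermediate in both libraries, and so was Crip1, a small LIM-domain protein, at 290.0, 809 and 847 CPM in the WT library and 314, 579 and 739 CPM in the KIKO library. Sox17, a transcription factor of arterial identity, was at 273, 368 and 440.2 CPM in the WT library and 214, 301 and 431 CPM in the KIKO library. Its steps were smaller, with log2 ratios to the capillary class of 0.43 (0.23 to 0.64) and 0.50 (0.30 to 0.69). Unc5b, a netrin receptor, was at 20.4, 52.3 and 76.6 CPM in the WT library and 31.6, 52.0 and 91.9 CPM in the KIKO library. In all, 12 of the 16 genes (75.0%) were higher than the capillary and lower than the arterial class in both libraries, against 504 of all 3598 genes (14.0%).

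Genes of capillaries were mostly lower. Of 16 capillary genes, 10 (62.5%) had both intervals below the capillary class and 2 (12.5%) had both above it, beside 6.39% and 8.03% of all genes. The median log2 ratio was -0.53 in WT and -0.33 in KIKO, and 13 of 16 (81.3%) stepped down from the capillary class to the arteriolar-side cells and on to the arterial class in both libraries, against 446 of all genes (12.4%). The 2 genes with both intervals above stepped up, so 15 of the 16 lay between these classes. Slc7a5, the large neutral amino acid transporter, was at 823, 578 and 267 CPM in the WT library and 809, 610.0 and 283 CPM in the KIKO library. Slc22a8, an organic anion transporter, was at 194, 117 and 37.3 CPM in the WT library and 252, 162 and 94.9 CPM in the KIKO library. Tfrc, the transferrin receptor that brings iron into the brain, was at 227, 129.5 and 68.8 CPM in the WT library and 206, 146 and 65.2 CPM in the KIKO library. Slc39a10, a zinc importer, was at 670.4, 482 and 267 CPM in the WT library and 740.4, 622 and 437 CPM in the KIKO library. All 4 stepped down from capillary to artery in both libraries.

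The capillary list was not lower as a whole. Rad54b, a helicase of DNA repair that the capillary list holds, stepped up with the arterial genes, at 81.5, 185 and 242 CPM in the WT library and 138, 274 and 351 CPM in the KIKO library. Itm2a, a membrane protein of capillaries, had log2 ratios of -0.21 (-0.30 to -0.11) in WT and -0.01 (-0.08 to 0.06) in KIKO, so no difference was detectable in KIKO. Of 21 solute carriers of the barrier, 10 (47.6%) were lower and 4 (19.0%) higher in both libraries, beside 6.39% and 8.03% of all genes. Slc6a6, the taurine transporter, was one of the higher ones, at 859, 1542 and 1885 CPM in the WT library and 1037, 1529 and 1942 CPM in the KIKO library. Slco1c1, which carries thyroid hormone, was also higher but by little, with log2 ratios of 0.17 (0.06 to 0.28) and 0.11 (0.03 to 0.19). The basic amino acid transporter Slc7a1 was lower (188 against 329 CPM in WT and 241 against 342 CPM in KIKO), as was the iron exporter Slc40a1 (144 against 206 CPM in WT and 131 against 293 CPM in KIKO). The aromatic amino acid decarboxylase Ddc (92.5 against 195 CPM in WT and 113 against 205 CPM in KIKO) and the efflux pump Abcg2 (861 against 1169.7 CPM in WT and 999 against 1300.0 CPM in KIKO) were also lower.

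**Figure D3:**
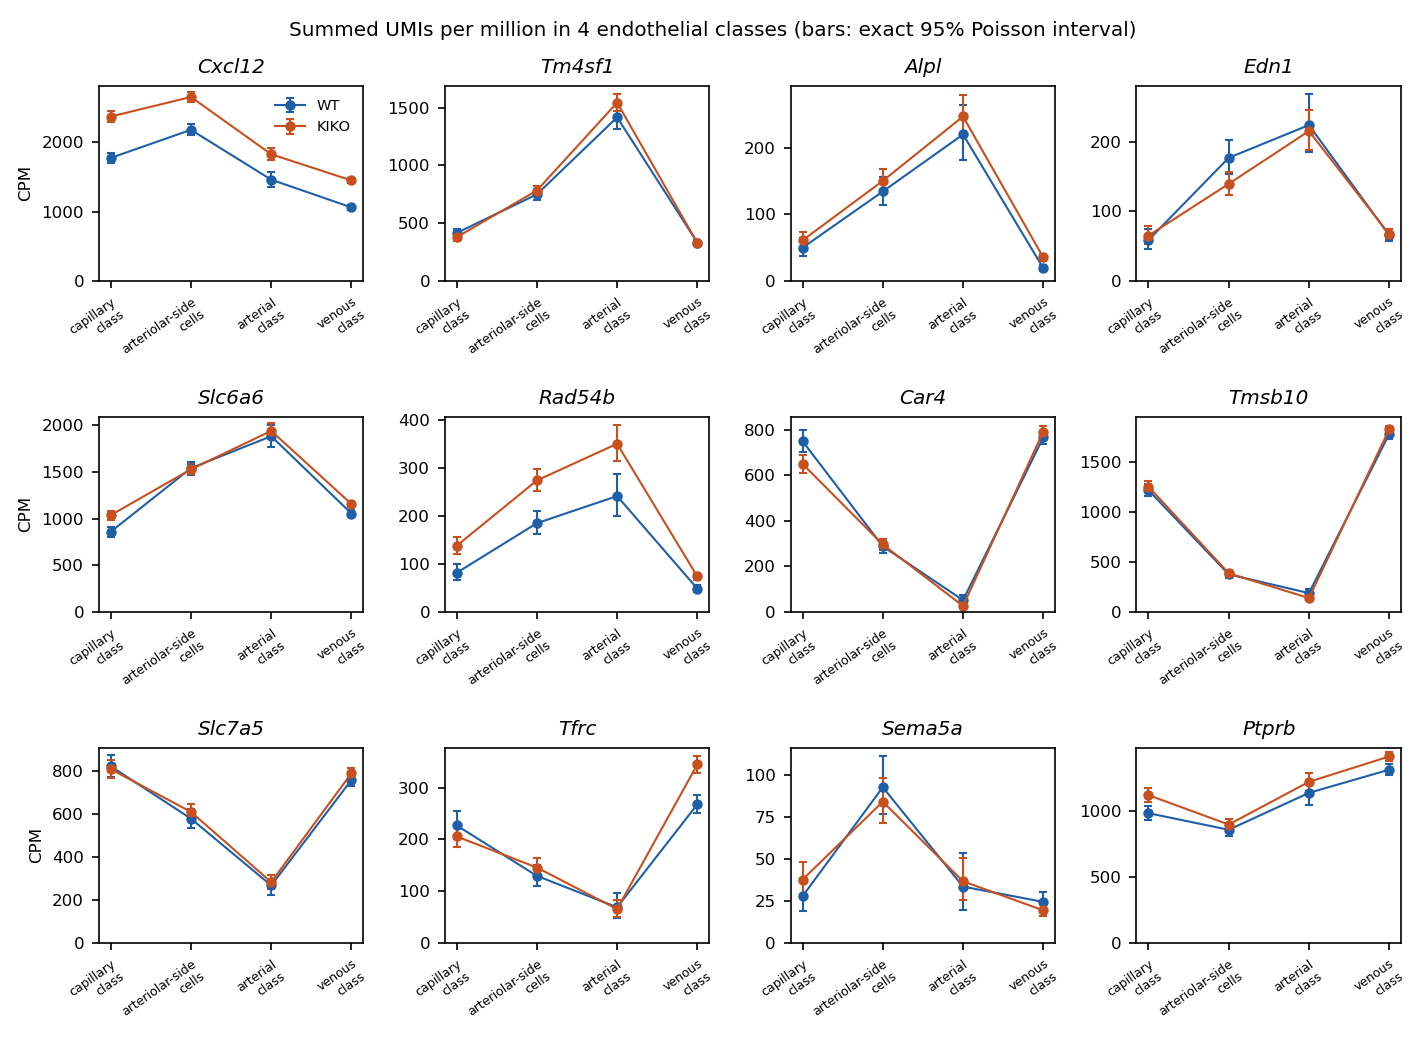
Level (y axes, CPM of summed UMIs, linear and starting at 0) of 12 genes in the capillary class, the arteriolar-side cells, the arterial class and the venous class, for WT (blue) and KIKO (orange), with exact 95% Poisson intervals. Tm4sf1, Alpl, Edn1, Slc6a6 and Rad54b stepped up towards the arterial class, Car4, Tmsb10, Slc7a5 and Tfrc stepped down, and Cxcl12 and Sema5a were highest in the arteriolar-side cells.

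At least 2-fold in both libraries, 25 of 3598 genes (0.695%) were higher and 13 (0.361%) lower than in the capillary class. Among the 15 highest, Cdh13, an adhesion receptor without a transmembrane part, was at 17.1, 183 and 397 CPM in the WT library and 44.1, 149 and 346 CPM in the KIKO library in the capillary class, the arteriolar-side cells and the arterial class. S100a6 and S100a10, calcium-binding proteins, were at 11.4, 133 and 216 CPM in the WT library and 26.2, 103 and 127 CPM in the KIKO library and at 95.3, 329.9 and 462 CPM in the WT library and 75.2, 258 and 291 CPM in the KIKO library. Ccnd1, the cyclin D1 of the cell cycle, was at 66.0, 199.5 and 269 CPM in the WT library and 74.6, 207 and 499 CPM in the KIKO library. Each of these 4 genes had its highest value in the arterial class, and S100a6 was found in only 23 WT and 22 KIKO arteriolar-side cells.

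Alpl, described above, belonged to the 15, with log2 ratios of 1.44 (1.004 to 1.88) and 1.30 (0.97 to 1.64). So did Cd9, a tetraspanin (212 against 79.0 CPM in WT and 223 against 69.8 CPM in KIKO), Gadd45g, a growth arrest gene (316 against 121 CPM in WT and 293 against 113 CPM in KIKO), and Edn3, a second endothelin peptide (80.5 against 30.1 CPM in WT and 72.1 against 28.0 CPM in KIKO). Emp1, an epithelial membrane protein, was at 93.3 against 29.3 CPM in WT and 86.5 against 17.9 CPM in KIKO. Cpm, a membrane carboxypeptidase, was at 83.7 against 28.5 CPM in WT and 70.0 against 20.3 CPM in KIKO. These 6 genes were detected in 40 or more cells of each library and so did not rest on a few cells. Eps8l2, an actin regulator (129.5 against 47.2 CPM in WT and 120.5 against 48.3 CPM in KIKO), the kinase Tec (57.9 against 22.8 CPM in WT and 59.2 against 24.5 CPM in KIKO) and the unnamed transcript Gm9946 (102 against 35.8 CPM in WT and 157 against 45.9 CPM in KIKO) were alike in this. Ccn3, a matricellular protein, rested on fewer cells, 14 in WT and 25 in KIKO, at 67.6 against 6.52 CPM in WT and 126 against 24.5 CPM in KIKO. Hbb-bt, a haemoglobin chain, was found in 3 WT and 4 KIKO cells, and 156 of its 160 WT UMIs came from 1 cell.

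Among the genes with the lowest ratios, Tmsb10 was at 1215, 374 and 187 CPM in the WT library and 1249.9, 385 and 137 CPM in the KIKO library in the capillary class, the arteriolar-side cells and the arterial class. Car4 was at 750.2, 288 and 51.1 CPM in the WT library and 650.3, 296 and 25.7 CPM in the KIKO library. Adgrl3, an adhesion receptor of the latrophilin family, was at 351, 114 and 11.8 CPM in the WT library and 329, 58.7 and 5.93 CPM in the KIKO library. Hmcn1, a large matrix protein, was at 560.4, 284 and 57.0 CPM in the WT library and 823, 429 and 146 CPM in the KIKO library. All 4 genes were lower still in the arterial class. Ackr3, the receptor that removes Cxcl12 from the surroundings, was lower in the cells with the highest Cxcl12, at 44.3 against 106 CPM in WT and 26.3 against 82.3 CPM in KIKO, and in the arterial class it was at 43.2 and 29.7 CPM.

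Slc16a1, the lactate and ketone body transporter, was at 96.5 against 191 CPM in WT and 74.1 against 186 CPM in KIKO, and Slc39a8, a zinc and manganese importer, at 39.4 against 93.7 CPM in WT and 54.1 against 111 CPM in KIKO. Fmo2, a monooxygenase, was at 123 against 313 CPM in WT and 121 against 258 CPM in KIKO. Net1, an exchange factor for small GTPases, was at 132 against 369 CPM in WT and 123 against 251 CPM in KIKO. The phosphodiesterase Pde7b (49.1 against 154 CPM in WT and 98.3 against 226 CPM in KIKO) and Prkag2, a subunit of the energy sensor AMPK (49.9 against 112 CPM in WT and 44.3 against 99.6 CPM in KIKO), were lower by over 2-fold. Smox, a spermine oxidase (log2 ratios of -1.06 (-1.59 to -0.55) in WT and -1.18 (-1.62 to -0.75) in KIKO), Inpp5d, an inositol phosphatase (26.6 against 60.3 CPM in WT and 35.5 against 74.0 CPM in KIKO), and Gnb4, a G protein subunit (43.4 against 99.4 CPM in WT and 46.8 against 96.6 CPM in KIKO), were also lower in both libraries.

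A few genes were highest in the arteriolar-side cells and not merely between their neighbours. In both libraries 13 of 3598 genes (0.361%) had intervals above all 3 other classes and 2 (0.0556%) below all 3. The genes in this paragraph were chosen after their values were seen. Sema5a, a transmembrane semaphorin, was at 92.5 CPM in WT against 27.7, 33.4 and 24.3 CPM in the capillary, arterial and venous classes. In KIKO it was at 83.9 CPM against 37.6, 36.6 and 19.3 CPM, and it was found in 37 WT and 60 KIKO cells. Sparc, a collagen-binding matrix protein, was above the other classes by less, at 1105 CPM in WT against 933 to 960 CPM and at 1040.3 CPM in KIKO against 854 to 961 CPM. The nuclear RNA Malat1 was at 34111 and 35081 CPM, against 32122 and 30106 CPM in the arterial class. Rsad2, an antiviral interferon-stimulated gene, was at 282 against 161 CPM in WT and 283 against 190.3 CPM in KIKO. In WT 129 of its 351 UMIs came from 1 cell, and when the cells were chosen after thinning its WT log2 ratio was -0.036 (-0.24 to 0.16). Ptprb, the endothelial phosphatase that restrains Tie2 signalling, was lowest of the 4 classes, at 859 CPM in WT against 986, 1139.8 and 1316 CPM and at 899 CPM in KIKO against 1123, 1224 and 1417 CPM. Tex14 was the other gene below all 3 classes, at 29.0 and 34.0 CPM. The rest of the 13 were Cxcl12, Gng5, Hspb1, Ywhae, Ppp1r2 and 4 haemoglobin genes, which rested on few cells. In WT 1 cell gave 922 of the 966 UMIs of Hbb-bs, 396 of the 421 of Hba-a1 and 281 of the 294 of Hba-a2, and in KIKO 1 cell gave 1280 of 2375, 514 of 928 and 274 of 566, beside Hbb-bt as given above.

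Signalling genes were mixed. The counts of the lists that follow stand beside 8.03% of all genes higher and 6.39% lower in both libraries. Of 12 Notch pathway genes 3 (25.0%) were higher and 2 (16.7%) lower. The ligand Jag2 (191 against 142 CPM in WT and 199 against 141 CPM in KIKO) and the receptor Notch1 (239.8 against 194 CPM in WT and 210.0 against 166 CPM in KIKO) were higher, as was Efnb2, the ephrin of arteries (73.2 against 47.2 CPM in WT and 63.8 against 43.6 CPM in KIKO). Maml2, a coactivator of Notch (162 against 197 CPM in WT and 193 against 252 CPM in KIKO), and Mfng, a glycosyltransferase that modifies Notch (34.6 against 53.8 CPM in WT and 35.5 against 59.1 CPM in KIKO), were lower. The ligand Dll4 was at 87.7 against 117 CPM in WT and 75.7 against 93.1 CPM in KIKO, and the target Hes1 was at 388 against 463 CPM in WT and 294 against 296 CPM in KIKO. For neither of them did the intervals of both libraries lie on the same side of 0. In WT the sign of each turned under an alternative, to 0.039 (-0.26 to 0.33) for Dll4 after thinning and to 0.094 (-0.15 to 0.34) for Hes1 without cells that held markers of other cell types. Of 6 genes of the VEGF and angiopoietin pathways, 3 were lower and 0 higher. The VEGF receptor Kdr was at 179 against 292 CPM in WT and 233 against 356 CPM in KIKO and its co-receptor Nrp1 at 112 against 189 CPM in WT and 126 against 249 CPM in KIKO, and Ptprb was also lower.

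Of 14 genes of TGF-beta and BMP signalling, 4 (28.6%) were higher and 0 lower, among them the ligand Tgfb2 (98.2 against 40.7 CPM in WT and 118 against 63.2 CPM in KIKO) and the inhibitor Smad6 (60.3 against 35.8 CPM in WT and 63.8 against 25.1 CPM in KIKO). Of 22 Wnt genes 2 (9.09%) were higher and 2 lower, near the shares of all genes. The transcription factor Lef1 (599 against 795 CPM in WT and 702 against 882 CPM in KIKO) and the Wnt inhibitor Apcdd1 (157 against 234 CPM in WT and 188 against 258 CPM in KIKO) were the lower ones. Of 11 guidance molecules 4 (36.4%) were higher and 2 (18.2%) lower, with Efnb1 (58.7 against 29.3 CPM in WT and 54.1 against 35.8 CPM in KIKO) among the former and Sema6a (87.7 against 164 CPM in WT and 96.3 against 175 CPM in KIKO) among the latter. Trpv4, a calcium channel opened by stretch and warmth, was at 83.7 against 39.9 CPM in WT and 61.3 against 20.9 CPM in KIKO. Of 13 genes of the flow response 5 (38.5%) were higher and 0 lower. The flow-induced factors Klf2 (4434 against 3912 CPM in WT and 4345 against 3567 CPM in KIKO) and Klf4 (3129.8 against 2116 CPM in WT and 2279.9 against 1628 CPM in KIKO) were higher in both libraries.

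Immediate early genes, which dissociation can switch on, were higher than in the capillary class for 11 of 22 genes, beside 8.03% of all genes, and lower for 0. Fos was at 5037 against 3709 CPM in WT and 4036 against 2326 CPM in KIKO, and Junb at 2946 against 2314 CPM in WT and 1909 against 1485 CPM in KIKO. Egr1 was at 1558 against 1025 CPM in WT and 746 against 430.1 CPM in KIKO. Of 25 interferon-stimulated genes 7 (28.0%) were higher and 1 lower, and of 15 genes of MHC class I presentation 4 (26.7%) were higher and 0 lower. The Ly6 proteins Ly6c1 (5350.4 against 4056 CPM in WT and 5362 against 3577 CPM in KIKO) and Ly6a (3674 against 2907 CPM in WT and 3601 against 2438 CPM in KIKO) were higher too. Among 35 genes of the respiratory chain 0 were higher and 0 lower in both libraries, with medians of 0.06 and 0.01.

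Markers of other cell types were present, no doublets had been removed, and the part of such RNA in the results was not tested. At least 3 markers of another cell type were found in 70 of 143 WT cells (49.0%) and in 75 of 244 KIKO cells (30.7%). The choroid plexus list gave the most such cells, 46 in WT and 44 in KIKO, and all 10 of its genes were detected, at 2581 and 3775 CPM in sum. In the capillary class it summed to 3459 and 7141 CPM. The 14 mural genes outside the rule summed to 806 and 373 CPM, with at least 3 found in 29 and 23 cells, against 863 and 608 CPM in the capillary class. The 5 erythroid genes summed to 1483 and 2192 CPM. The oligodendrocyte list stood at 964 and 716 CPM, the fibroblast list at 148 and 154 CPM and the microglia list at 105 and 131 CPM. The astrocyte list stood at 63.6 and 62.3 CPM and the T cell list at 0 and 8.24 CPM. Since Stmn2 is known from neurons, 20 neuronal genes were summed apart, and gave 34.6 CPM in WT and 19.0 CPM in KIKO from 43 and 37 UMIs, with 0 cells holding 3 or more of them. They stood at 42.2 CPM (40 UMIs) in the 106 WT cells with Stmn2 and at 10.2 CPM (3 UMIs) in the 37 without. In KIKO they stood at 23.3 CPM (34 UMIs) in 176 cells and at 6.22 CPM (3 UMIs) in 68 cells. In WT and KIKO they stood at 49.1 and 95.9 CPM in the arterial, 22.8 and 14.3 CPM in the capillary and 15.1 and 10.2 CPM in the venous class.

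The genotypes were then compared. Xist, the RNA of the inactive X chromosome, stood at 486 CPM in WT and 526 CPM in KIKO arteriolar-side cells, and the Y-linked genes Ddx3y, Eif2s3y, Kdm5d and Uty gave 0 UMIs in both.

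The arteriolar-side cells were 17.5% (14.96 to 20.3) of the endothelial cells in WT and 18.9% (16.8 to 21.1) in KIKO. The difference was 1.35 percentage points, with a Newcombe interval of -2.07 to 4.66. Chosen after thinning to 3000 UMIs they were 20.2% (153 of 759 cells) and 18.6% (221 of 1190 cells), a difference of -1.59 points (-5.25 to 1.97). The share thus did not differ beyond counting error, and its sign depended on depth. Of the cells chosen after thinning, 91 of 153 and 142 of 221 were also chosen without it.

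Few genes differed by 2-fold. Of 3805 genes with at least 50 CPM in a library and 30 UMIs in all, 5 (0.131%) were at least 2-fold higher in KIKO and 11 (0.289%) at least 2-fold lower. The interval lay above a ratio of 1 for 355 genes (9.33%) and below it for 398 (10.5%). The median log2 ratio over all genes was 0.0013. The 2-fold counts were not stable. Without cells that held 3 or more markers of another cell type, which were 49.0% of the WT and 30.7% of the KIKO cells, they were 31 higher and 19 lower, and with cells chosen after thinning 6 and 2.

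The heat-shock gene Hspa1b, a chaperone of the Hsp70 family, stood at 659 CPM in WT and 1388 CPM in KIKO, a log2 ratio of 1.07 (0.96 to 1.19). At 3000 UMIs per cell it was found in 57.2% (48.5 to 65.6) of WT and 86.4% (81.3 to 90.6) of KIKO cells. Hspa1a, its near-identical neighbour, with which it can share reads, stood at 1542 CPM in WT and 2468 CPM in KIKO, and Hsph1, a partner of Hsp70, at 115 CPM in WT and 207 CPM in KIKO. The capillary class moved the same way, with log2 ratios of 0.70 for Hspa1b, 0.59 for Hspa1a and 0.70 for Hsph1. Of 18 heat-shock chaperones in all, 4 (22.2%) had the interval above 1 and 1 (5.56%) below it, beside 9.33% and 10.5% of all genes. The median log2 ratio of the 18 genes was 0.11.

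The other high ratios were of genes at low levels. B430010I23Rik, an unnamed transcript, stood at 38.6 CPM in WT and 93.7 CPM in KIKO and Sorbs2os, a transcript antisense to Sorbs2, at 29.0 CPM in WT and 59.2 CPM in KIKO. Cep120, a protein of the centriole (28.2 CPM in WT and 56.1 CPM in KIKO), Pet100, an assembly factor of cytochrome c oxidase (32.2 CPM in WT and 60.7 CPM in KIKO), and the adaptor Apba1 (33.8 CPM in WT and 63.3 CPM in KIKO) were near 2-fold. Pde7b stood at 49.1 CPM in WT and 98.3 CPM in KIKO. Ccn3 (67.6 CPM in WT and 126 CPM in KIKO) and Mgp, an inhibitor of calcification (30.6 CPM in WT and 55.6 CPM in KIKO), were the last of the 10. The sign of Ccn3 turned when at most 1 arterial gene was allowed (-0.11, -0.62 to 0.41), and that of Mgp when cells were chosen after thinning (-0.19, -0.42 to 0.04).

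The lowest ratios rested on few cells. Cxcl10, an interferon-induced chemokine, gave 269 UMIs in WT and 0 in KIKO. Against a floor of 3 UMIs over the group that is at least 140-fold lower in KIKO, but 268 of the 269 UMIs came from 1 WT cell. The same cell of 18233 UMIs held 53 of the 131 WT UMIs of the adhesion molecule Icam1 (105 CPM in WT and 21.1 CPM in KIKO). The smooth muscle genes Acta2 (118 CPM in WT and 5.66 CPM in KIKO) and Tagln (78.0 CPM in WT and 3.09 CPM in KIKO) were found in 5 and 11 WT cells, and Myl9, a myosin light chain (51.5 CPM in WT and 17.0 CPM in KIKO), in 20. A single WT cell held 83 of the 147 Acta2 UMIs, 33 of the 97 Tagln UMIs and 14 of the 64 Myl9 UMIs, and another WT cell held 54 of the Tagln and 19 of the Myl9 UMIs. Chosen after thinning, the log2 ratios of these 3 genes were 0.98 (0.38 to 1.61) for Acta2, 0.11 (-0.51 to 0.75) for Tagln and 0.37 (-0.02 to 0.77) for Myl9. The direction of all 3 thus depended on which cells were chosen.

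The other low genes were found in more cells. Nr1d1, a repressor of the circadian clock, stood at 73.2 CPM in WT and 31.4 CPM in KIKO and was found in 54 WT and 47 KIKO cells. Pcdh17, a protocadherin, stood at 79.7 CPM in WT and 25.7 CPM in KIKO, Nup210l, a protein of the nuclear pore family, at 66.0 CPM in WT and 27.8 CPM in KIKO and Bcr, a regulator of small GTPases, at 59.5 CPM in WT and 25.7 CPM in KIKO. Cebpb, a factor of the inflammatory and stress response, stood at 111 CPM in WT and 50.4 CPM in KIKO. The WT cell with the most Tagln also held 40 of the 138 Cebpb UMIs and 16 of the 74 Bcr UMIs. With the highest cell of each library left out, an alternative chosen after seeing the data, the log2 ratios were -0.72 for Cebpb and -0.92 for Bcr, so neither was 2-fold lower. The capillary class was also lower in KIKO for Nr1d1 (-0.83, -1.35 to -0.33), Nup210l (-0.94, -1.64 to -0.26) and Cebpb (-0.53, -0.92 to -0.14). For Pcdh17 (-0.10, -1.05 to 0.88) and Bcr (-0.38, -1.02 to 0.25) it did not differ beyond counting error.

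**Figure D4:**
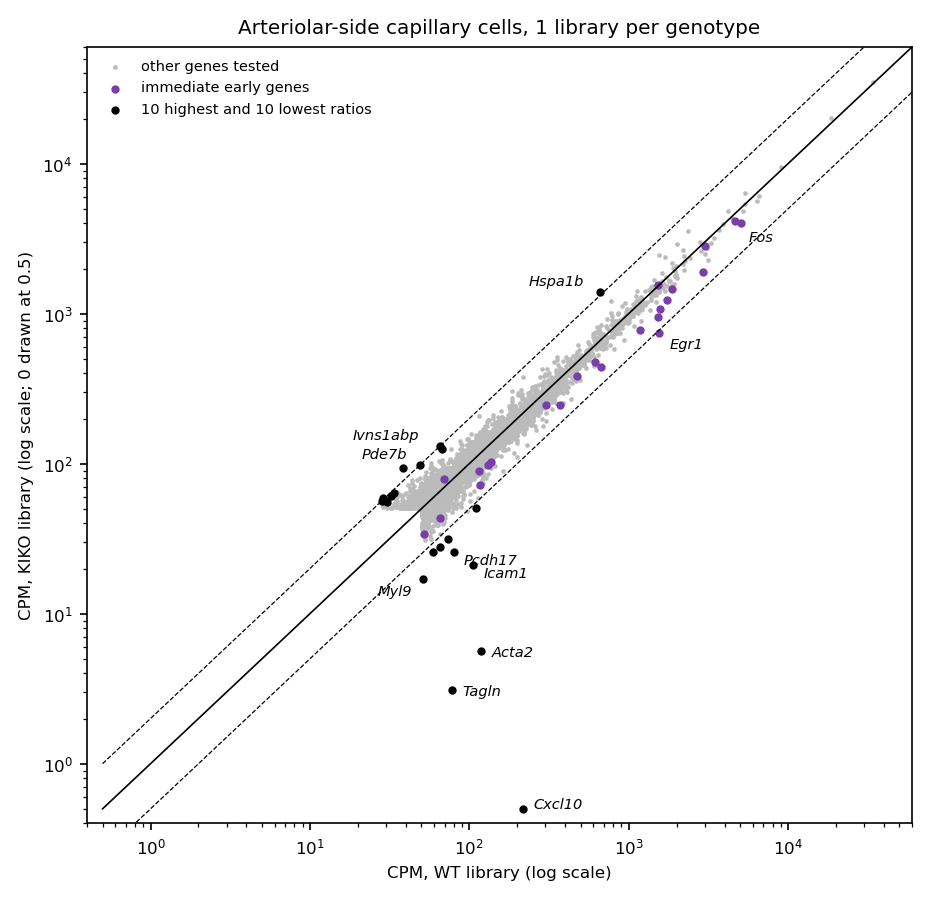
Level of each of 3805 genes in the arteriolar-side cells of the WT library (x axis, CPM, log scale) and the KIKO library (y axis, CPM, log scale, with 0 drawn at 0.5), with immediate early genes in purple and the named extremes in black. The solid line marks equal levels and the dashed lines a 2-fold difference, and most immediate early genes lie below the solid line.

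Immediate early genes were lower in KIKO as a group. Of 23 genes, 21 had the interval below 1 and 0 above it, beside 10.5% of all genes below. Their median log2 ratio was -0.42. Egr1, a zinc finger factor, stood at 1558 CPM in WT and 746 CPM in KIKO, a log2 ratio of -1.06 (-1.16 to -0.96). At 3000 UMIs per cell it was found in 80.4% (72.8 to 86.7) of WT and 60.1% (53.4 to 66.5) of KIKO cells. Atf3, a stress-induced factor, stood at 1538 CPM in WT and 954 CPM in KIKO, and the nuclear receptor Nr4a1 at 669 CPM in WT and 440.1 CPM in KIKO. The AP-1 subunits Junb (2946 CPM in WT and 1909 CPM in KIKO) and Fos (5037 CPM in WT and 4036 CPM in KIKO) differed by less, with log2 ratios of -0.63 (-0.69 to -0.56) and -0.32 (-0.37 to -0.27). Ier2 stood at 1566 CPM in WT and 1076 CPM in KIKO. The 2 genes with no such difference were Dusp1, a phosphatase that ends MAP kinase signals (0.03 (-0.06 to 0.11)), and Fosl2. The capillary class gave a median of -0.49 for the same genes. Handling of the suspensions and genotype cannot be told apart with 1 library each.

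**Figure D5:**
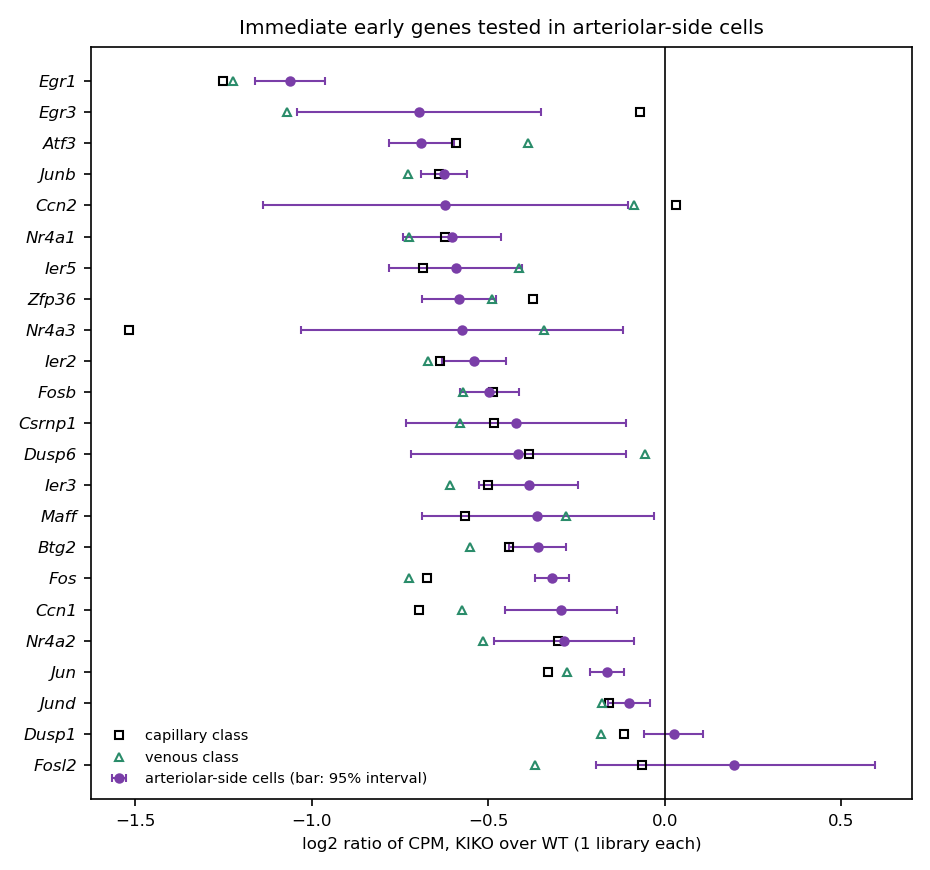
Log2 ratio of CPM in KIKO over WT (x axis) for the 23 immediate early genes compared, in the arteriolar-side cells (purple points with 95% intervals of counting error), the capillary class (squares) and the venous class (triangles). In the arteriolar-side cells 21 of the 23 intervals lie below 0, with Egr1 the lowest at -1.06.

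Other inducible genes were also lower. Klf4 stood at 3129.8 CPM in WT and 2279.9 CPM in KIKO, whereas Klf2 stood at 4434 CPM in WT and 4345 CPM in KIKO and did not differ beyond counting error. Socs3, the inhibitor of cytokine signals, stood at 230.1 CPM in WT and 133 CPM in KIKO and was found in 40.6% (32.3 to 49.3) of WT and 25.0% (19.5 to 31.1) of KIKO cells at 3000 UMIs. Of 15 glucocorticoid-responsive genes 8 were lower and 0 higher, beside 10.5% of all genes lower, among them the kinase Sgk1 (389 CPM in WT and 256 CPM in KIKO), the metallothionein Mt1 (1196 CPM in WT and 895 CPM in KIKO) and the cell cycle inhibitor Cdkn1a (1475 CPM in WT and 1196 CPM in KIKO). Of 7 NF-kB response genes 5 were lower and 0 higher, among them Icam1 and Cebpb, of which single WT cells gave the shares above. With the highest cell of each gene left out in each library, 7 of the 15 and 4 of the 7 were lower. The median log2 ratios of the 15 and the 7 genes were -0.21 and -0.33. The capillary class moved the same way, with medians of -0.21 and -0.23 for the same genes.

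Several capillary genes were higher in KIKO than in WT. Of 16 genes 7 had the interval above 1 and 2 below it, beside 9.33% of all genes above, and their median log2 ratio was 0.25, where the capillary class gave 0.02. The difference between the classes was not tested. Ivns1abp, an actin-associated protein, stood at 65.2 CPM in WT and 131 CPM in KIKO, and Rad54b at 185 CPM in WT and 274 CPM in KIKO. The transporters Slc22a8 (117 CPM in WT and 162 CPM in KIKO), Slc39a10 (482 CPM in WT and 622 CPM in KIKO) and Slc7a1 (188 CPM in WT and 241 CPM in KIKO) were higher, as was Itm2a (1435 CPM in WT and 1676 CPM in KIKO). Slc16a1 went the other way (96.5 CPM in WT and 74.1 CPM in KIKO). Among the arterial genes outside the rule 2 of 17 (11.8%) were above and 6 (35.3%) below, beside 10.5% of all genes below, and their median was -0.09. Sox17 was among those below (368 CPM in WT and 301 CPM in KIKO). With the highest cell of each gene left out in each library, 4 of the 17 were below. Slco1c1 stood at 1133 CPM in WT and 1423 CPM in KIKO, and Cxcl12 at 2179.6 CPM in WT and 2654 CPM in KIKO, with log2 ratios of 0.33 (0.24 to 0.42) and 0.28 (0.22 to 0.35). In the capillary class these were 0.39 and 0.42.

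Over all genes 9.33% were above and 10.5% below. Of 22 Wnt genes 5 (22.7%) were above and 3 (13.6%) below. The targets Axin2 (53.1 CPM in WT and 82.4 CPM in KIKO) and Tcf7 (59.5 CPM in WT and 84.4 CPM in KIKO) and the factor Lef1 (599 CPM in WT and 702 CPM in KIKO) were higher, and the receptor Fzd4 was lower (198 CPM in WT and 138 CPM in KIKO). In the capillary class Axin2 went the other way, with a log2 ratio of -0.49. In MHC class I presentation 5 of 15 genes (33.3%) were above and 0 below, among them H2-K1 (632 CPM in WT and 819.5 CPM in KIKO), the immunoproteasome subunit Psmb10 (68.4 CPM in WT and 97.3 CPM in KIKO) and H2-Q7 (122 CPM in WT and 171 CPM in KIKO), whose difference turned to -0.057 (-0.43 to 0.33) without cells that held markers of other cell types. Of 26 interferon-stimulated genes 3 (11.5%) were above and 7 (26.9%) below, but 6 were above and 3 below with the highest cell of each gene left out in each library. The collagens of the basement membrane Col4a1 (494 CPM in WT and 364 CPM in KIKO) and Col4a2 (349 CPM in WT and 253 CPM in KIKO) were lower, where the capillary class gave log2 ratios of 0.10 and 0.05. Of 37 respiratory chain genes 1 (2.70%) was above and 3 (8.11%) below, with a median of -0.04, and of 5 genes of iron-sulphur cluster assembly 0 were above and 0 below.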

How the data were processed

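UMI counts per gene and barcode of 1 WT and 1 KIKO library were used as deposited. The authors made these counts with Cell Ranger (7.0.1 in the file headers) against mm10, called cells with it and applied no normalisation. Barcodes were kept with over 500 genes, over 1000 and at most 20000 UMIs and under 10% mitochondrial UMIs, and no doublets were removed. This left 1388 WT and 2063 KIKO cells with 11081338 and 16377785 UMIs, of which 1242891 and 1942630 were in arteriolar-side cells.

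Cells were classified by the genes detected, UMIs were summed per library and class in Python 3.11.15 (numpy 2.4.6, scipy 1.17.1), and ratios of CPM were given with exact intervals of a ratio of 2 Poisson counts, shares with Clopper-Pearson intervals and share differences with Newcombe intervals. All are at 95% and cover counting error only. A gene was compared with at least 50 CPM in 1 of the groups and 30 UMIs. Against the capillary class a gene counts only if both libraries show it. Thinning drew 3000 UMIs per cell with seed 1 and left out shallower cells. Positions are from GENCODE vM21 (GRCm38), promoters from RefSeq (GRCm38.p6). The script was tested on simulated counts.

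The members and gene lists were chosen with earlier results of these data known. The text names the genes of the rule, up to about 6 genes per list, the 15 highest and 15 lowest genes against the capillary class, by the smaller of the ratios of both libraries, and the 10 highest and 10 lowest between genotypes, leaving out genes of the rule and sex-linked genes. The targeted gene and 1 of the 15 lowest are not reported here. Sequences of the promoter were copied from that table. Alternatives were other cell filters and thresholds, edgeR 4.0.16 TMM factors (R 4.3.3), the mean of per-cell CPM and no CPM minimum.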

Additional observations from a re-analysis of the deposited data

Results flagged for a closer look

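Of 3805 genes compared between genotypes, 26 (0.683%) had intervals of counting error on one side of a ratio of 1 in the arteriolar-side cells and on the other side in the capillary class, and the difference between the classes was not tested. Among the genes named here there were 7. The log2 ratio of KIKO over WT was -4.66 for Tagln in the arteriolar-side cells and 1.55 in the capillary class. For Acta2 the values were -4.38 and 3.01, and for Myl9 -1.60 and 0.76. Icam1, the leukocyte adhesion molecule, stood at -2.32 and 0.58. These 4 genes owed part of their WT UMIs to single cells, as described above. Axin2 stood at 0.63 and -0.49, Cdh13 at -0.29 and 1.37 and S100a6 at -0.37 and 1.20.

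Signal was also found among barcodes that were not used. Of the barcodes above 20000 UMIs, 4 in the WT library and 9 in the KIKO library met the rest of the rule, out of 184 and 167 with the endothelial genes.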

How the results depend on the processing

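No paired analysis was possible because the genotypes had a single library each. The choice of cells moved the shares. Without an upper limit on UMIs the WT share of arteriolar-side cells was 14.7%. With at least 3 arteriolar genes the shares were 10.8% and 11.1% in WT and KIKO, and with at most 1 arterial gene 13.7% and 15.5%. The number of genes at least 2-fold higher and lower in KIKO, 5 and 11, varied more. It was 18 higher with at least 3 arteriolar genes, 31 higher and 19 lower without cells that held 3 or more markers of another cell type, and 116 and 70 with no CPM minimum. It was 3 higher with TMM factors, 13 higher and 7 lower with the mean of per-cell CPM, 35 lower with no upper limit and 2 lower after thinning. Against the capillary class, 8 genes in place of 13 were lower with no upper limit and 8 with at most 1 arterial gene, and 44 were higher and 28 lower with no CPM minimum.

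The counts of 4 lists, chosen after seeing the data, were not made for the mean of per-cell CPM or with no CPM minimum. Under the rest of these settings they kept within 1.5 times. Arterial genes above the capillary class numbered 10 to 14, capillary genes below it 9 to 13, immediate early genes lower in KIKO 16 to 21 and capillary genes higher in KIKO 7 to 9. With the highest cell of each gene left out in each library, also chosen after seeing the data, 12 genes were at least 2-fold higher and 9 lower in KIKO, and of 26 interferon-stimulated genes 6 in place of 3 were higher and 3 in place of 7 lower.

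Single genes turned sign under some settings. With no upper limit Myl9 stood at 0.028 between genotypes. With at most 1 arterial gene Ccn3 was at -0.11. After thinning, between genotypes, Mgp was at -0.19, Cxcl10 at 0.49, Tagln at 0.11, Acta2 at 0.98 and Myl9 at 0.37. Against the capillary class Hbb-bt was at -4.29, Dll4 at 0.039 and Rsad2 at -0.036 in WT and Cxcl12 at -0.0092 in KIKO. Without cells that held markers of another type, Acta2 was at 1.78, Myl9 at 1.24 and H2-Q7 at -0.057 between genotypes, Hes1 was at 0.094 and Rsad2 at -0.023 in WT, and Hbb-bt was at -0.15 in KIKO against the capillary class. The cause was not tested. Other values of single genes, 440 between genotypes and 1215 against the capillary class, stayed within counting error, and 71 and 216 moved beyond it. Turns of sign were counted only where the main interval left out a ratio of 1, so further turns can be among these values. Depth limits low genes, and those under 50 CPM or 30 UMIs were not compared.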
